A study of Dendrobium nobile with 12 samples.

Results

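Root and bud of the orchid Dendrobium nobile were compared by RNA-seq, with 2 root libraries from 1-year seedlings set against 2 bud libraries from 2-year seedlings, 4 of the 12 libraries of the series. The other 8 libraries, stem and leaf of 1-year seedlings and petal and labellum of 2-year seedlings with 2 libraries each, were used to see where the models that separate root from bud stood elsewhere. All 12 libraries carry the same genotype label and came from seedlings grown in a potting mix in a greenhouse, and the treatment label is the tissue itself. The kind of bud is not labelled, tissue and seedling age differ together between root and bud and cannot be told apart, and the labels do not tell whether a tissue's libraries are separate plants. The p-values below cover the spread among the libraries at hand, possibly a technical one. The design text names Dendrobium officinale, and the organism label of each library, used here, is D. nobile.

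Of 31672 gene models, 309 were on in root and off in bud, and 767 were on in bud and off in root. On means an FPKM (fragments per kilobase of coding length and scaled to the library total) of at least 1 in both libraries of the tissue. Off means a pooled FPKM under 0.1, where the counts of both libraries were added before scaling. These levels of root and bud chose the members, and they are described without a test. The same models in stem, leaf, petal and labellum are measurements that the choice did not use. The deposited identifiers carry a chromosome and a running number and are paired with no gene name in the files used here, so no function is given for any model, and no check of root or bud against marker genes was made.

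As background, the roots of epiphytic orchids take up water and minerals through a spongy dead outer layer and house symbiotic fungi. A bud, whether it opens into flowers or into a leafy shoot, holds dividing and differentiating cells together with organs that are not yet expanded. The labellum is the modified petal of the orchid flower, which attracts and guides pollinators. In a whole organ, fewer cells of a type and less RNA per cell cannot be told apart, and this holds for each level below.

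Depth differed between the sides. The root libraries held 14165136 and 5289212 counts, and the bud libraries held 27307456 and 30450170. A count of 0 over both libraries therefore allowed up to 0.154 CPM (counts scaled to the library total) in root and 0.0519 in bud, by a floor of 3 counts that covers counting error only. Between its own 2 libraries, root had a biological coefficient of variation of 0.357 and bud one of 0.579. Across the 19123 tested models Spearman's rho was 0.965 between the root libraries and 0.925 between the bud libraries. Between root and bud libraries it ran from 0.653 to 0.695, with bud replicate 2 nearer to each root library than bud replicate 1. These rho values are taken over genes, and genes are not independent replicates.

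Root and bud differed in 9940 models, and more of the calls and more of the large fitted changes were on the bud side. Of 19123 tested models these were called, 4237 higher in root and 5703 higher in bud, by edgeR's quasi-likelihood test at a Benjamini-Hochberg adjusted p under 0.05 and at least 2-fold. That is 52.0% of the tested models, 22.2% higher in root and 29.8% higher in bud. This fit pooled the spread of all tissues, and root and bud had the largest. Its p-values may therefore understate the spread of root and bud. Fewer models were called by limma-voom with a variance weight for each tissue, 3043 higher in root and 4426 higher in bud. From the 4 root and bud libraries alone edgeR called 3269 and 4291. The part of the pooled spread in the difference between these counts was not tested. Changes of 2- to 4-fold were nearly as many in both directions, 1792 higher in root and 1939 higher in bud. Changes of at least 32-fold numbered 668 in root and 1526 in bud. These are fitted values, which counts do not bound where a side held 0 counts, and root was the shallower side. Of the on/off models, 562 bud-on models had 0 counts in root and 150 root-on models had 0 counts in bud. The part of depth in the large changes was not tested. The root and bud libraries did not overlap for 4208 of the 4237 models higher in root and 5603 of the 5703 higher in bud. With 2 libraries a side the call itself favours this, so it adds no support. Over all tested models the root minus bud log2 fold change had a median of -0.25 with TMM scaling and -0.09 with total counts, and the share of calls higher in root was 42.6% and 47.1%.

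**Figure D1:**
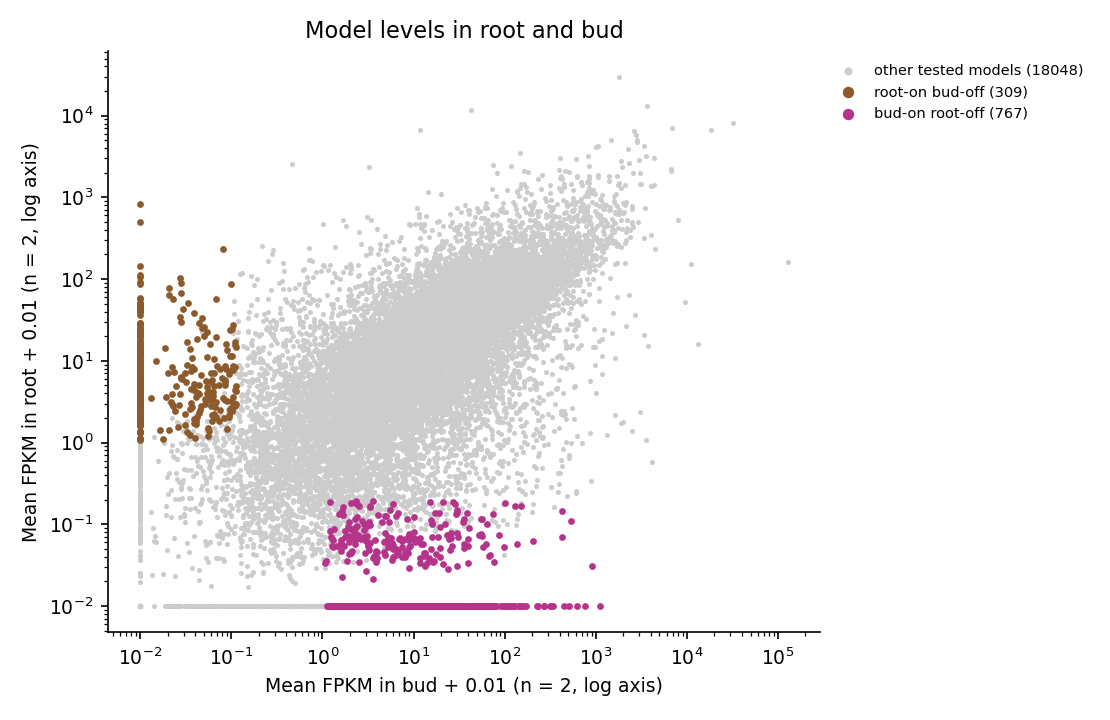
Mean FPKM in bud (x axis) and root (y axis) of each tested or listed model, n = 2 libraries a tissue, on log axes after adding 0.01. The 309 root-on bud-off models lie along the left edge and the 767 bud-on root-off models along the lower edge, while the other models form a broad diagonal cloud.

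The most abundant transcripts of the 2 tissues were seldom on/off. Root and bud shared 31 of their 100 highest models by mean FPKM. Of root's 100, 52 were called higher in root and 8 higher in bud, and 98 were on in all 6 tissues. Of bud's 100, 74 were called higher in bud and 3 higher in root, and 95 were on in all 6 tissues. No on/off model was among the 100 highest of its tissue, where the lowest mean was 1050 FPKM in root and 1520 FPKM in bud. In each set of 100, 1 model had a mean under 1 FPKM on the other side, and both are described next.

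Among called models outside both on/off lists, evm.model.Chr18.1177-gene (chromosome 18, coding length 285 bp) stood at 3676 and 1492 FPKM in the root libraries and at 0.899 and 0 FPKM in the bud libraries. Both root libraries lay far above both bud libraries, and stem, at 15.9 and 23.5 FPKM, was next. Its log2 fold change was 12.34 ± 0.93 (SE), with an adjusted p of 4.11e-06 by edgeR's quasi-likelihood test. It became 11.53 without root replicate 1 and 11.23 without bud replicate 2, and without bud replicate 1, which held all 7 bud counts, the model was at least 8920-fold higher in root. The second root model, evm.model.Chr12.544-gene (chromosome 12, 411 bp), stood at 395 and 112 FPKM in root and at 0.178 and 0.240 FPKM in bud. Its next highest tissue was labellum, at 11.1 and 3.95 FPKM, and stem was at 0 counts. The log2 fold change was 10.02 ± 1.02 (SE) with an adjusted p of 4.28e-05 by edgeR, or 8.82 without root replicate 1 and 10.66 without root replicate 2. With limma-voom and a variance weight for each tissue the call was lost, at an adjusted p of 0.0567, the highest over its alternatives (lowest 1.55e-24).

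In the other direction, evm.model.Chr17.1370-gene (chromosome 17, 309 bp) stood at 6147 and 2217 FPKM in the bud libraries and at 1.14 and 0 FPKM in the root libraries. The remaining tissues ranged from 1.55 FPKM in leaf replicate 2 to 43.7 FPKM in labellum replicate 2, so bud stood apart from each of them and not from root alone. The log2 fold change, root minus bud, was -12.50 ± 1.53 (SE), with an adjusted p of 7.66e-05 by edgeR. It became -11.45 without bud replicate 1, and without bud replicate 2 the ratio of pooled CPM was 7390 in place of 4900. Without root replicate 1, which held all 5 root counts, the model was at least 2220-fold higher in bud.

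The second bud model, evm.model.Chr18.1331-gene (chromosome 18, 4746 bp), stood at 0.509 and 14.6 FPKM in bud and at 0 counts in root, and it missed the list because bud replicate 1 lay under 1 FPKM. Petal, at 17.1 and 6.83 FPKM, and labellum, at 24.9 and 15.3 FPKM, were near bud replicate 2, while stem and leaf held 1 count in each library. It was at least 245-fold higher in bud, with an adjusted p of 0.00359 by edgeR. That bound was 66.6 without root replicate 1, 451 without bud replicate 1 and 15.7 without bud replicate 2. By limma-voom with a variance weight for each tissue its adjusted p was 0.104, the highest over its alternatives (lowest 6.47e-09).

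Coding length moved with the comparison. The median length was 1602 bp for models called higher in root, 816 bp for models called higher in bud and 1134 bp for all tested models. In 5 length classes of nearly equal size the median log2 fold change, root minus bud, was -1.54 in the shortest (153 to 606 bp), then -0.81, -0.32 and 0.20, and 0.94 in the longest (1893 to 16149 bp). The shortest class held 390 models higher in root and 1904 higher in bud, and the longest held 1665 and 453. After removal of the length trend of each library, 4016 models were called higher in root and 4300 higher in bud, of which 3146 and 3858 were also called without that step. The part of length in the calls was not tested further.

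The root-on bud-off models were of low to moderate level. Their mean FPKM in root ran from 1.07 to 830 with a median of 5.25, 95 of the 309 reached 10 FPKM and 7 reached 100 FPKM. Together they took 0.491% ± 0.117 of root counts and 0.00103% ± 0.000119 of bud counts (mean ± SD, n = 2 each). In bud 150 of them had 0 counts in both libraries, 94 had 1 to 3 counts in all, and the highest count over both libraries was 17. Of the 309, 308 were also called higher in root, where 22.2% of all tested models were. These 308 made up 7.27% of all calls higher in root. As the choice used that contrast, nothing is read from these shares. The exception, evm.model.Chr06.140-gene (321 bp), held 6 and 4 root counts and 0 and 1 bud counts and was named after its values were seen.

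The highest of these, evm.model.Chr10.389-gene (chromosome 10, 390 bp), stood at 285 and 1380 FPKM in root replicates 1 and 2 and at 0 counts in both bud libraries. Elsewhere it held at most 2 counts in any library. The next, evm.model.Chr14.761-gene (chromosome 14, 660 bp), stood at 729 and 260 FPKM in root and also had 0 counts in bud, with at most 6 counts in any other library. The first was higher in root replicate 2 and the second in root replicate 1. The highest model under 0.1 pooled FPKM in all 5 other tissues, evm.model.Chr06.475-gene (chromosome 6, 522 bp), stood at 60.5 and 406 FPKM in root. Its only counts elsewhere were 2 in bud replicate 1.

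The bud-on root-off models reached higher levels. Their mean FPKM in bud ran from 1.06 to 1120 with a median of 6.72, 309 of the 767 reached 10 FPKM and 42 reached 100 FPKM. They took 1.70% ± 0.160 of bud counts and 0.00175% ± 0.000392 of root counts (mean ± SD, n = 2 each). In root 562 of them had 0 counts, 194 had 1 to 3 counts in all, and the highest count over both libraries was 6. Of the 767, 766 passed the filter on low counts and 754 were called higher in bud, where 29.8% of all tested models were. These 754 made up 13.2% of all calls higher in bud. Nothing is read from these shares, for the same reason. The 1 model that was not tested, evm.model.Chr18.1367-gene (312 bp), held 38 and 10 bud counts. The 12 that were not called had at most 1 root count each.

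The highest of the bud models, evm.model.Chr18.1363-gene (chromosome 18, 885 bp), stood at 104 FPKM in bud replicate 1 and 2137 FPKM in bud replicate 2, with 0 counts in root. Its labellum libraries, at 970 and 216 FPKM, overlapped that range, and petal was at 21.0 and 17.5 FPKM. The next, evm.model.Chr10.477-gene (chromosome 10, 1695 bp), was uneven in the opposite sense, at 1570 FPKM in bud replicate 1 and 240 FPKM in replicate 2, with 1 count in root. Both labellum libraries stood at 575 FPKM, petal at 128 FPKM in each library, and stem and leaf under 1 FPKM. In contrast, evm.model.Chr17.1784-gene (chromosome 17, 246 bp), the highest that was off in all 5 other tissues, stood at 103 and 185 FPKM in bud and at no more than 1 count in any other library. Broadest of the named bud models was evm.model.Chr02.76-gene (chromosome 2, 339 bp), the highest that was on in stem, leaf, petal and labellum alike, at 1030 and 513 FPKM in bud. It had 0 counts in root, between 1.75 and 12.8 FPKM in stem and leaf, and between 23.9 and 38.3 FPKM in petal and labellum.

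**Figure D2:**
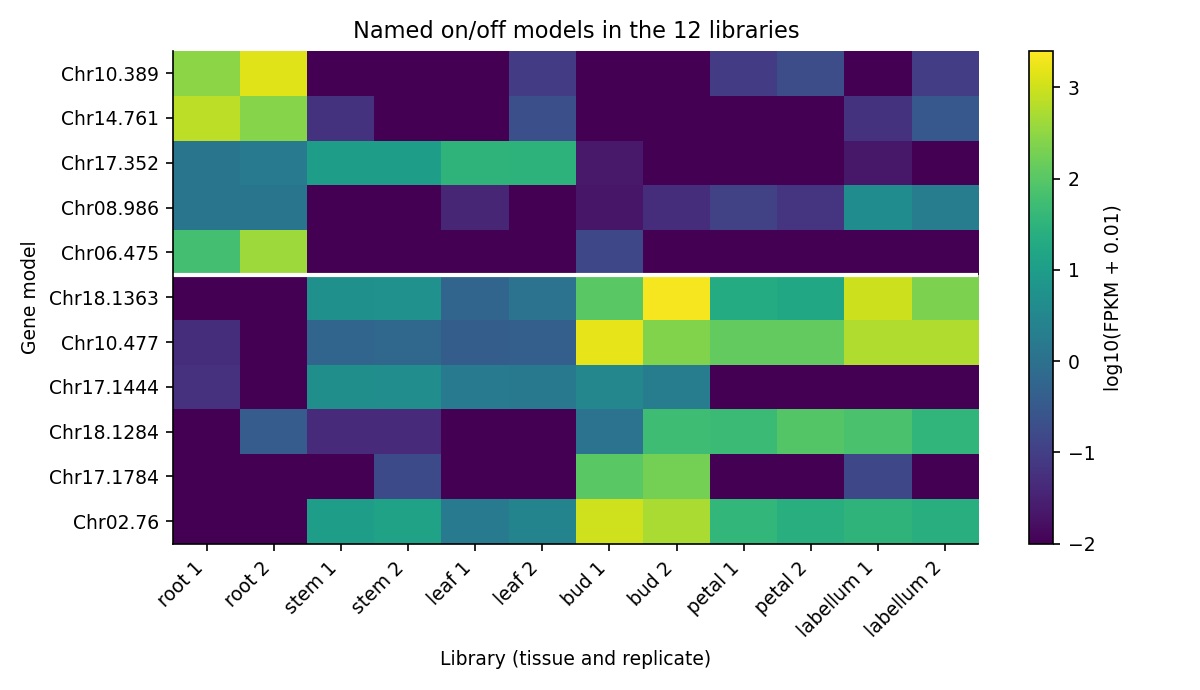
Colour gives log10(FPKM + 0.01) of the 11 named on/off models in each of the 12 libraries, with the root-on models above the white line and the bud-on models below it. Rows Chr10.389, Chr14.761 and Chr06.475 are bright in root alone, row Chr17.1784 in bud alone, and the other rows are also bright in some of the 4 remaining tissues.

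The on/off lists differed in how far they extended into the other tissues. Of the root-on models 231 (74.8%) were on in none of stem, leaf, petal and labellum, and 110 (35.6%) were off in all 4. Of the bud-on models 322 (42.0%) were on in none of the 4 and 149 (19.4%) were off in all 4. No root-on model was on in all 4 other tissues, against 80 bud-on models (10.4%). Root was the highest of the 6 tissues for 268 of its 309 models, and bud for 545 of its 767. The choice favours a high level in the tissue that is on, so these counts are a description. Among all models on in root, from 88.6% (petal) to 93.5% (stem) were also on in each of these tissues, and among all models on in bud from 90.2% (leaf) to 92.1% (stem) were.

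Root-on models that were on elsewhere were mostly on in the leafy shoot. In stem 60 of the 309 were on and 155 off, and in leaf 41 were on and 184 off. In petal 4 were on and 253 off, and in labellum 4 were on and 248 off. Their median was 0.0960 FPKM in stem, 0.0380 FPKM in leaf, 0 in petal and 0.0106 FPKM in labellum. On in stem or leaf and in neither floral organ were 71 models, 33 of them in stem alone, 14 in leaf alone and 24 in both. The 33 stem models had a median of 8.35 FPKM in stem and 3.90 FPKM in root, and 19 of them were highest in stem. The 24 shared by stem and leaf had medians of 5.74 FPKM in root, 6.55 FPKM in stem and 3.55 FPKM in leaf. The whole list took 0.111% ± 0.000365 of stem counts and 0.083% ± 0.000134 of leaf counts (mean ± SD, n = 2 each), against 0.0021% ± 0.000725 of petal and 0.00455% ± 0.000784 of labellum counts.

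**Figure D3:**
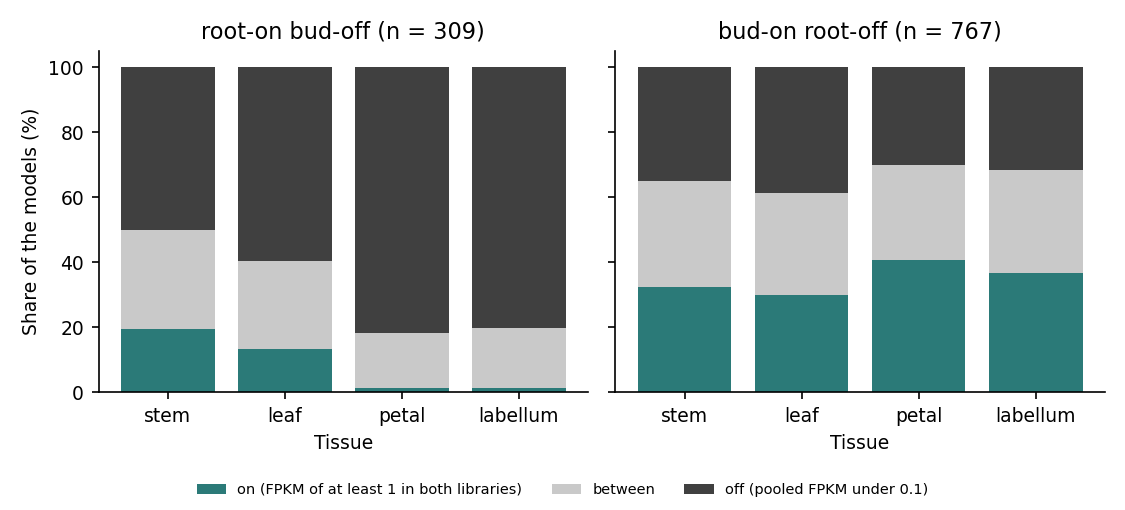
Bars give the share of each list (309 root-on bud-off models, left, and 767 bud-on root-off models, right) that was on, between the thresholds or off in stem, leaf, petal and labellum. On the left, 60 and 41 models were on in stem and leaf and 4 in each floral organ. On the right, between 228 and 312 models were on in each tissue.

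Bud-on models were spread over all 4 tissues, with more of them in the floral organs. Petal had 312 of the 767 on, labellum 282, stem 247 and leaf 228. Their median was 0.691 FPKM in petal, 0.660 FPKM in labellum, 0.376 FPKM in stem and 0.302 FPKM in leaf. On in a shoot tissue and a floral organ were 230 models, on in petal or labellum and not in stem or leaf 129, and on in stem or leaf and not in petal or labellum 86. The 81 models on in petal and labellum and not in the shoot had medians of 14.3 FPKM in bud, 5.80 FPKM in petal and 6.82 FPKM in labellum, and 45 of them were highest in bud. The 40 on in stem and leaf and not in the floral organs were lower, with medians of 3.69 FPKM in bud, 3.05 FPKM in stem and 3.61 FPKM in leaf, and 15 were highest in bud. The 80 on in all 4 had medians of 12.7 FPKM in bud and from 5.83 FPKM in stem to 7.94 FPKM in leaf. Labellum spent the largest share of its counts on the list, 1.05% ± 0.0719, followed by petal with 0.556% ± 0.000504, leaf with 0.363% ± 0.00104 and stem with 0.235% ± 0.00183 (mean ± SD, n = 2 each).

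**Figure D4:**
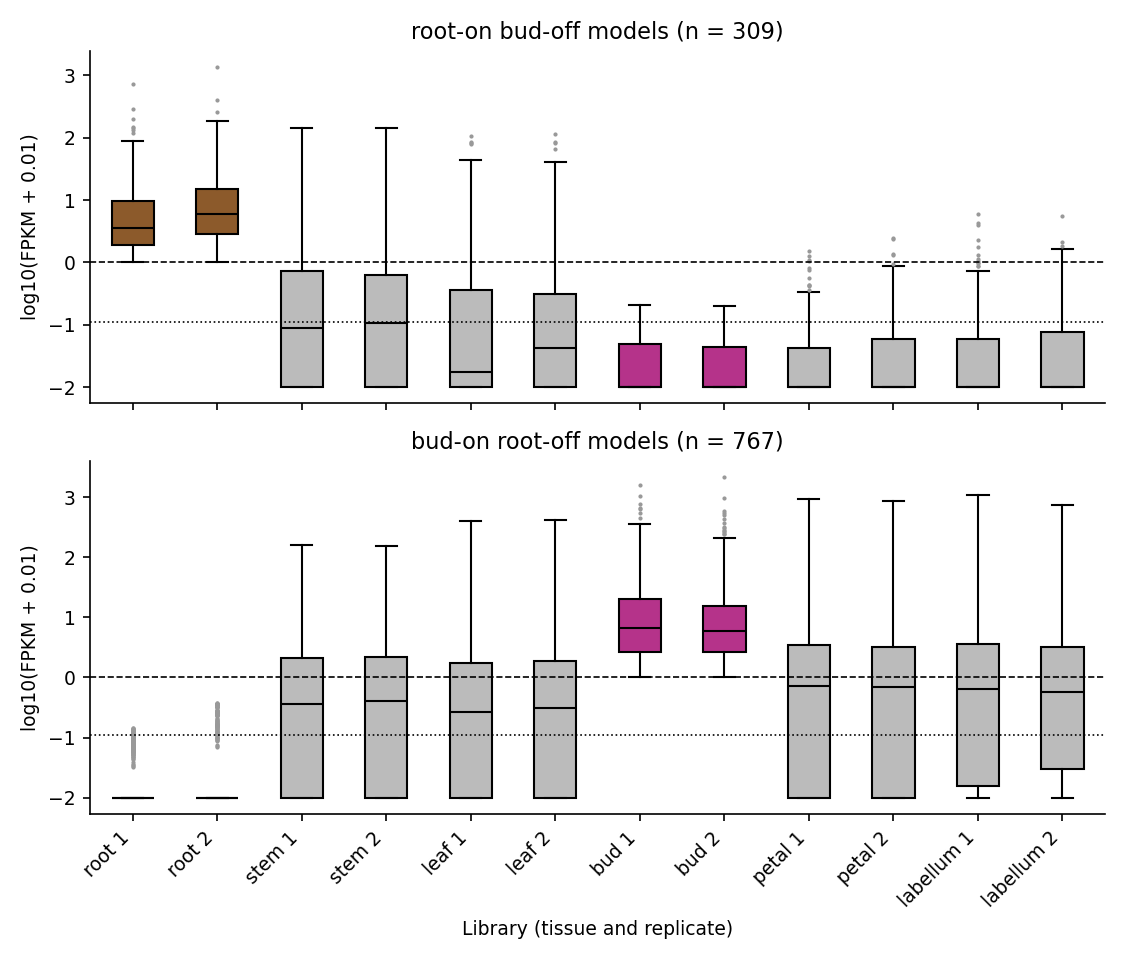
Boxes give the distribution of log10(FPKM + 0.01) over the 309 root-on bud-off models (upper) and the 767 bud-on root-off models (lower) in each library; boxes span the quartiles, the line is the median, whiskers reach 1.5 times the box and dots lie beyond. Dashed and dotted lines mark 1 and 0.1 FPKM. The root-on models lie lowest in bud, petal and labellum, and the bud-on models straddle both lines in the 8 libraries that did not choose them.

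A contrast of stem and leaf with petal and labellum, into which the means of root and bud do not enter, was then tested across all models. It asks whether models that separate root from bud also separate the leafy shoot from the flower's open organs. Stem and leaf share the seedling age of root, and petal and labellum share that of bud. Tissue and age therefore cannot be told apart in this contrast, nor in any likeness of these tissues to root or bud. Of the 309 root-on models 99 (32%) were higher in stem and leaf and 9 (2.91%) were higher in petal and labellum, and 201 were not called. Among all tested models 25.2% were higher in stem and leaf and 22.5% in petal and labellum, by edgeR's quasi-likelihood test with the same thresholds. Of the 766 tested bud-on models 116 (15.1%) were higher in stem and leaf and 254 (33.2%) in petal and labellum, and 396 were not called. In the 8 libraries 54 root-on and 65 bud-on models had 0 counts and could not differ. On in none of the 4 tissues were 231 root-on and 322 bud-on models, mostly at low levels there. List members could pass the filter on low counts through root or bud alone. The shares of all tested models are therefore given as background and are not a like reference. Calls in which the libraries of the sides did not overlap made up 22.7% of the root-on models towards stem and leaf and 1.29% towards petal and labellum. For the bud-on models these shares were 11.5% and 22.8%, and for all tested models 23.1% and 18.9%.

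The share of root-on models that were higher in stem and leaf lay above or below that of all tested models, depending on the choice of list and the test. Of the 150 root-on models with 0 counts in bud, 30 (20%) were higher in stem and leaf, under the 25.2% of all tested models, and 2 (1.33%) were higher in petal and labellum. Of the 159 with 1 or more counts in bud, 69 (43.4%) and 7 (4.40%) were. In the 8 libraries of the contrast, 45 of the 150 had 0 counts and could not be called, against 9 of the 159. The 20% counts these 45 in its 150. With limma on log2(FPKM + 1), 57 of the 309 (18.4%) were higher in stem and leaf and 2 (0.647%) higher in petal and labellum, beside 25.3% and 15.6% of all tested models. Of the 561 tested bud-on models with 0 counts in root, 70 (12.5%) were higher in stem and leaf and 171 (30.5%) in petal and labellum. Those 561 include 63 with 0 counts in the 8 libraries.

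The median fitted log2 fold change, stem and leaf minus petal and labellum, was 1.44 for the root-on models, -0.46 for the bud-on models and 0.08 for all tested models. As ratios of pooled CPM with low counts set to a floor of 3 over each side, the medians were 1.18, -0.01 and 0.39. This second scale has no TMM step, and the bud-on models lie below all tested models on both. The fitted median was 1.01 for the 150 root-on models with 0 counts in bud. By limma on log2(FPKM + 1) the median was 0.09 for all 309 root-on models and -0.0007 for the bud-on models. Both lay under the 0.236 of all tested models on that scale. The 9 root-on models higher in petal and labellum became 5 without petal replicate 2. The spread behind these calls is that within tissues. Differences between stem and leaf, or petal and labellum, are no part of it.

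**Figure D5:**
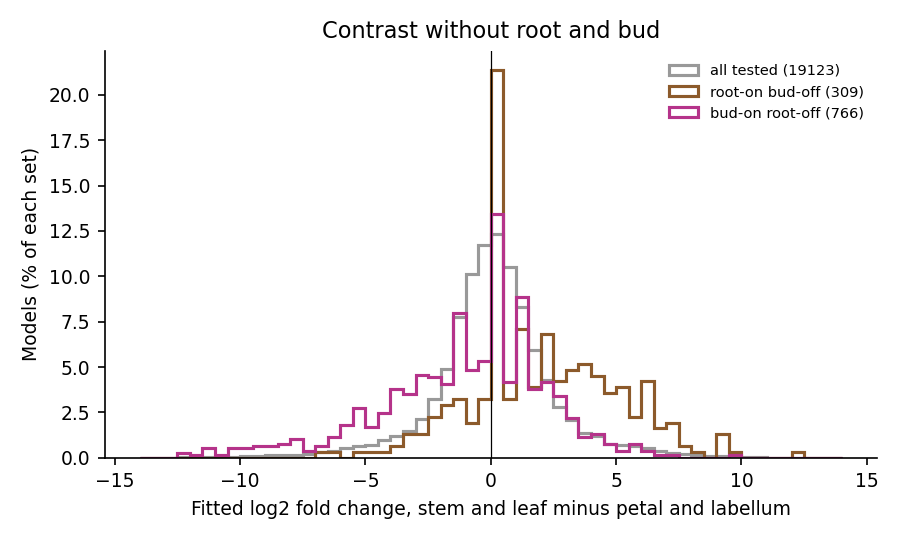
Histograms of the fitted log2 fold change, stem and leaf minus petal and labellum, as a percentage of all 19123 tested models, of the 309 root-on bud-off models and of the 766 tested bud-on root-off models. The root-on models extend to the right (median 1.44) and the bud-on models to the left (median -0.46); models with 0 counts in the 8 libraries fall at 0.

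In this contrast the steepest root-on model was evm.model.Chr17.352-gene (chromosome 17, 2829 bp), at 1.22 and 1.60 FPKM in root, 9.92 and 10.3 FPKM in stem and 31.8 and 31.1 FPKM in leaf. Petal and labellum together held 1 count, so leaf was highest and root was the lowest of the 3 vegetative tissues. The ratio of pooled CPM was 7170 with a 95% counting interval of 1288 to 283400, and without labellum replicate 1, which held the count, it was at least 1810. The steepest in the opposite direction, evm.model.Chr08.986-gene (chromosome 8, 3294 bp), stood at 1.22 and 1.26 FPKM in root and at 4.24 and 1.82 FPKM in labellum. Its petal libraries, at 0.0984 and 0.0535 FPKM, were far under labellum, which held nearly all counts of that side. The ratio was 201, with a 95% counting interval of 68.9 to 976, since stem and leaf held 3 counts. It was 87.1 without labellum replicate 1 and at least 147 without leaf replicate 1, which held those counts. Their adjusted p values by edgeR's quasi-likelihood test were 5.01e-08 and 0.000129.

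Of the bud-on models, evm.model.Chr17.1444-gene (chromosome 17, 1434 bp) was steepest towards the shoot, at 4.88 and 4.34 FPKM in stem, 1.74 and 1.54 FPKM in leaf and 3.14 and 1.83 FPKM in bud. It had 0 counts in the 4 petal and labellum libraries, so stem and leaf together were at least 172-fold higher. The steepest towards the flower, evm.model.Chr18.1284-gene (chromosome 18, 1056 bp), stood at 48.0 and 91.5 FPKM in petal, 70.9 and 35.3 FPKM in labellum, and 1.11 and 53.3 FPKM in bud. Bud replicate 2 lay among the open floral libraries and bud replicate 1 far below them. With 2 counts in stem and none in leaf the ratio was 3830, with a 95% counting interval of 1060 to 31610, and it was 5810 and 5910 without stem replicates 1 and 2. Adjusted p values by edgeR's quasi-likelihood test were 1.49e-05 and 0.000132.

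Called models outside the on/off lists numbered 3929 higher in root and 4949 higher in bud, and the other tissues took unequal places between the 2. These models missed a list on either threshold, and some, such as evm.model.Chr18.1331-gene above, had 0 counts on one side. For those higher in root, stem lay nearer to root than to bud on the log2(FPKM + 0.1) scale in 61.5%, leaf in 52.6%, labellum in 20.3% and petal in 394 of the 3929. For those higher in bud, petal lay nearer to bud in 73.0%, labellum in 70.6%, stem in 53.3% and leaf in 47.9%. Root was the lowest of the 6 tissues for 3327 of the 4949 models higher in bud, while bud was the lowest for 1530 of the 3929 higher in root. Petal lay even lower than bud for 1628 of the latter. The call favours a low place for the lower tissue, and root was the shallower side, so these counts are a description.

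The 2 libraries of a tissue did not share these models evenly. Of the 309 root-on models 68 (22.0%) differed at least 4-fold in CPM between the root libraries, against 2.20% of all models on in root. Replicate 2, the shallower library, was the higher one for 57 of the 68. Of those 57, 40 had at least 20 counts in each root library, and 54 (94.7%) were on in none of stem, leaf, petal and labellum. Of the 11 that were higher in replicate 1, 7 (63.6%) were on in none of the 4, and of the 241 within 4-fold 170 (70.5%) were. Among all models on in root these shares were 82 of 204 (40.2%) higher in replicate 2, 16 of 110 higher in replicate 1 and 2.91% of those within 4-fold. These totals include the list, which supplies 54 of the 82 and 57 of the 204, and 7 of the 16 and 11 of the 110. The list was chosen partly on low levels elsewhere, and whether a difference between plants, root parts or preparations moves with root replicate 2 was not tested.

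In bud 86 of the 767 models (11.2%) differed at least 4-fold between the libraries, against 4.23% of all models on in bud. Of the 37 that were higher in bud replicate 2, 31 were on in petal or labellum, with a median of 5.26 FPKM in petal and 4.35 FPKM in labellum. Of the 49 that were higher in bud replicate 1, 25 were on in petal or labellum, with medians of 0.550 and 1.53 FPKM. Of the 681 listed models within 4-fold, 303 (44.5%) were on in petal or labellum. Among all models on in bud that differed at least 4-fold, 312 of 323 higher in replicate 2 and 252 of 297 higher in replicate 1 were on in petal or labellum. Among those within 4-fold 93.5% were. A further 445 models were off in root and reached 1 FPKM in a single bud library, 239 in replicate 1 and 206 in replicate 2. In root the same count was 262, with 96 in replicate 1 and 166 in replicate 2.

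Some neighbouring models were on/off together. Of the 309 root-on models 42 (13.6%) had a listed model at an adjacent number on the same chromosome, and of the 767 bud-on models 126 (16.4%) did. Among models on in the same tissue and outside the list, 1.69% in root and 4.81% in bud had a listed neighbour. The numbers were taken as an order along the chromosome and were not checked against coordinates. As the rule for reads with several matches is not given in the sources used here, values of near-identical neighbours are uncertain. The runs described next were chosen after their values were seen.

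On chromosome 5, the models numbered 707 to 710, of 1368 to 1374 bp, stood between 2.88 and 6.83 FPKM in root replicate 1 and between 13.90 and 39.4 FPKM in root replicate 2. All 4 had 0 counts in the other 10 libraries, so they were found in root alone and were higher in replicate 2 throughout. On chromosome 9, the models numbered 410 to 413, of 948 to 975 bp, were all on in root and split in leaf. Numbers 410 and 411 had a mean of 85.4 and 74.6 FPKM in leaf, above their 34.0 and 3.53 FPKM in root, while numbers 412 and 413 had 0 counts in leaf and 46.8 and 90.9 FPKM in root. All 4 were higher in root replicate 2. Numbers 412 and 413 stood there at 83.8 and 171 FPKM against 9.92 and 11.04 FPKM in replicate 1. Number 410 stood at 52.65 FPKM against 15.41 FPKM, and number 411 at 3.79 FPKM against 3.28 FPKM. The longest run on the bud side, numbers 1262 to 1266 on chromosome 13, stood between 2.29 and 65.4 FPKM in bud replicate 1 and between 2.05 and 24.9 FPKM in replicate 2. Root held 0 counts of all 5, and no other library exceeded 0.132 FPKM.

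The on/off models were spread over all 19 chromosomes. As a share of the models on in the tissue, root-on models ran from 1.03% on chromosome 2 to 4.49% on chromosome 1. Bud-on models ran from 2.86% on chromosome 19 to 6.72% on chromosome 8. The bud-on models were short, with a median coding length of 792 bp against 1107 bp for all models on in bud, and 269 of the 767 were under 600 bp. For the root-on models these values were 981 bp against 1161 bp, and 65 of the 309. The median was 816 bp for all models called higher in bud and 1602 bp for all called higher in root. Short length was thus not particular to the bud-on list.

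Many models lay close to the thresholds. At the depth of root a single count over both libraries exceeded 0.1 pooled FPKM in models of up to 514 bp, and 47 models on in bud stayed off the list with 1 root count. In bud that length was 173 bp, and no model on in root was kept off the list by 1 count. On in root with 0.1 to 0.2 pooled FPKM in bud, just outside the list, were 113 models, and 66 of the 309 were at 0.05 to 0.1. For bud these numbers were 160 just outside and 140 just inside. The lower of the 2 libraries was under 1.5 FPKM for 67 of the root-on and 136 of the bud-on models. With the 4 libraries thinned to the depth of root replicate 2, 333 models were on in root and off in bud and 746 the reverse. Of these, 257 and 637 were in the lists at full depth.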

How the data were processed

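Read counts per gene model were deposited by the authors as whole numbers that were not normalised, for 12 libraries. FPKM values were deposited by the authors for the same models, and 100% of the 224365 values above 0 equalled the deposited count divided by a coding length and the library total (tolerance 0.01 bp). For the aligner, counting program and strand handling: not given in the sources used here, while the submitters' processing notes list mouse builds. Per the labels' protocols, column-purified RNA went into a SMARTER mRNA-seq kit.

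Counts were fitted with edgeR 4.0.16 in R 4.3.3 (filterByExpr, TMM, quasi-likelihood test, Benjamini-Hochberg adjustment) with a mean for each of 6 tissues, all 12 libraries and 6 residual degrees of freedom. Root minus bud, and stem and leaf minus petal and labellum, were tested. A standard error is the log2 fold change over the root of its F value, approximate at few counts. Alternatives used DESeq2 1.42.0 and limma 3.58.1, among others. Members, lists and naming rules were chosen with earlier results of these data known. Named are the 2 on/off models per side with the highest mean FPKM; the 2 steepest called models per side outside the lists (average log2 CPM not under 3, libraries not overlapping); the steepest per list and direction in the second contrast (average log2 CPM not under 0); and per list the highest that was off in all 5 other tissues and the highest that was on in the 4 other than root and bud (none for root-on models). For few counts, 95% exact Poisson limits are given.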

Additional observations from a re-analysis of the deposited data

How the results depend on the processing

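Counts of on/off models depend on the thresholds. With off as 0 counts in both libraries the root-on models were 150 in place of 309, with off under 0.5 pooled FPKM they were 686 and the bud-on models 1263 in place of 767, and with on at 5 FPKM they were 106 and 340. Leaving out a root or bud library, so that 1 library judged a side, gave 405 to 475 root-on models (475 without root replicate 1) and 832 to 1013 bud-on models. The other settings tried for these lists stayed within 1.5 times. At 8-fold, 1400 models were higher in root (4237 at 2-fold) and 2589 in bud (5703 at 2-fold). Leaving out each of the 12 libraries in turn gave 3680 to 4716 and 5034 to 5782.

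In stem and leaf against petal and labellum, the root-on models numbered 57 higher and 2 lower with limma on log2(FPKM + 1), in place of 99 and 9, and 14 lower with limma-voom and a variance weight per tissue; the cause was not tested. With the lists chosen at 0 counts they were 30 higher (20% of 150, where 32% of 309 were, beside 25.2% of all tested models) and 2 lower. Then 70 bud-on models (12.5% of 561) were higher in place of 116. Those shares include 45 of the 150 and 63 of the 561 that had 0 counts in the 8 libraries and could not be called. Leaving out each library gave 87 to 99 root-on models higher and 5 to 9 lower, and 98 to 121 bud-on models higher and 230 to 259 lower.

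The correlation of the replicate deviations of root and bud was -0.00654. For bud it was 0.117 with petal and -0.3 with labellum. Whether equal replicate numbers mark a shared plant or batch is not labelled, and these correlations cannot decide it. With the replicate block 4135 models were higher in root and 5472 in bud. Thinning to the shallowest library with off as 0 counts was added after seeing the data and gave 273 root-on and 652 bud-on models. Depth limits a root level of 0 more than a bud level of 0.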
